A study of Danio rerio with 20 samples.

Results

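Levels of 9 transcription factor genes of the eye and forebrain were followed in whole zebrafish larvae after exposure to persistent organic pollutants. The genes were six3a, six3b, pax6a, pax6b, rx1, rx2, vsx1, six6b and foxg1b, out of 22851 genes with a row in the deposited table, and all 9 were among the 19289 genes tested. They were taken by symbol, with the transcript of highest mean level over the 20 libraries standing for each gene. The genes had been chosen by their measured levels in these same libraries, with the differences between exposed and Control larvae known, so those differences are given as a description, with no p-value for any gene, and the counts made from them carry no evidence. The first 8 encode homeobox proteins, while foxg1b encodes a forkhead protein, a different DNA-binding family.

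Wild-type larvae of the AB strain were exposed from 6 to 96 hours post fertilization (hpf). The exposures were a mixture scaled to blood levels in Scandinavian people, at 10 times those levels (POP10) or 70 times (POP70), and perfluorooctanesulfonic acid (PFOS) alone at the amount it had in each mixture (PFOS10 and PFOS70). Control larvae received the solvent, 0.1% DMSO, and the sample labels do not give the solvent level of the exposed larvae. Each of the 5 groups had 4 libraries, each from a pool of 10 whole larvae, and the labels name no clutch for any pool, so a p-value speaks only for the spread among these pools.

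Homeobox factors of the six3, rx, pax6 and six6 families act early in the anterior neural plate, where they mark out the field from which the eyes and forebrain form. Later, several of them stay on in chosen neurons of the retina and brain and in retinal stem cells. Six3 proteins repress signals that would turn forebrain into more posterior tissue, Pax6 proteins act in lens, retina, brain and endocrine pancreas, and Rx proteins act in retinal progenitors and photoreceptors. Vsx1 is a factor of retinal bipolar neurons and Six6 acts in retina and the hypothalamic and pituitary region.

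Levels are given as log2 RPM, the log2 of reads scaled to a common total and not divided by transcript length, so levels of different genes are not ranked against each other. Reads were worked back from the values, with the lowest value of each library taken as 0.9 reads. On that reckoning the total that RPM refers to was 8572287 to 11243573 reads per library, and 1 RPM stood for 8.57 to 11.2 reads. What that total counts is not stated. The 9 genes were so read at 91 reads (the lowest value, in rx2) to 3319 reads (the highest, in foxg1b) per library. The PFOS10 libraries stood apart from the rest: on the first principal component, with 39.6% of the variance, they lay at 49.4 to 61.5, and the other 16 libraries at -45.0 to 21.9. In these whole-larva samples a lower level of a gene cannot be told apart as fewer cells of a type or less RNA per cell.

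The transcripts of the 9 genes lie on 9 chromosomes of GRCz11. six3a is at chromosome 13, 10258007 to 10261383 on the minus strand, and its paralog six3b at chromosome 12, 25600685 to 25603341 on the plus strand. pax6a is at chromosome 25, 15029041 to 15049694 (minus), and pax6b at chromosome 7, 15871156 to 15900606 (plus). rx1 is at chromosome 22, 4999256 to 5006801 (minus), and rx2 at chromosome 2, 55833425 to 55861351 (minus). vsx1 is at chromosome 17, 21063404 to 21066075 (minus), six6b at chromosome 20, 20531002 to 20533865 (minus), and foxg1b at chromosome 11, 43114108 to 43116249 (plus). No row of another gene in the table overlaps these spans. Nothing in the labels says how a read that matches both paralogs of a pair was counted or whether strand was used, so the split of reads within the six3, pax6 and rx pairs is uncertain.

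The pair six3a and six3b stood lowest in larvae given the high mixture and highest in PFOS10 larvae. For six3b, the 4 Control libraries read 6.41, 6.42, 6.35 and 6.24 log2 RPM. The POP10 libraries read 6.03, 6.08, 5.97 and 6.09, and the POP70 libraries 5.66, 5.86, 6.00 and 5.74. Every mixture library thus lay below every Control library. PFOS70 libraries, at 6.07, 6.00, 6.18 and 6.06, also lay below Control, and PFOS10 libraries, at 6.87, 6.87, 6.66 and 6.64, lay above it. Against the Control mean of 6.35 ± 0.08 (SD, n = 4) the log2 difference was -0.54 ± 0.08 (SE) in POP70, a level 1.45-fold lower, -0.31 ± 0.08 in POP10, -0.28 ± 0.08 in PFOS70 and 0.41 ± 0.08 in PFOS10. The order was PFOS10, Control, PFOS70, POP10 and POP70. The ranges of PFOS10 and Control, and of Control and PFOS70, did not overlap, while those of PFOS70 and POP10 and of POP10 and POP70 did.

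For six3a, Control libraries ran from 6.38 to 6.58 log2 RPM, and the ranges were 6.25 to 6.36 in POP10, 5.89 to 6.14 in POP70, 6.06 to 6.34 in PFOS70 and 6.59 to 6.90 in PFOS10. As with six3b, all 12 libraries of POP10, POP70 and PFOS70 lay below the Control range and all 4 of PFOS10 above it. The log2 differences from Control were -0.43 ± 0.08 (SE) in POP70, -0.17 ± 0.08 in POP10, -0.25 ± 0.08 in PFOS70 and 0.32 ± 0.08 in PFOS10. Across all 20 libraries six3a varied over a 2.02-fold range and six3b over a 2.33-fold range, against an SD within groups of at most 0.15 log2.

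pax6a, pax6b and vsx1 stood lowest with PFOS alone at its high level, not with the mixture that holds the same amount of PFOS. For pax6a, Control libraries read 7.78, 7.94, 7.93 and 7.64 log2 RPM, and PFOS70 libraries 7.33, 7.23, 7.54 and 7.35. POP70 libraries read 7.69, 7.59, 7.71 and 7.62, POP10 libraries 7.71, 7.87, 7.76 and 7.69, and PFOS10 libraries 7.97, 7.96, 7.95 and 7.81. All 4 PFOS70 libraries lay below every library of the 4 other groups, and the Control, POP10 and PFOS10 ranges overlapped. The log2 difference from Control was -0.46 ± 0.08 (SE) in PFOS70, a level 1.38-fold lower, -0.17 ± 0.08 in POP70, -0.07 ± 0.08 in POP10 and 0.10 ± 0.08 in PFOS10.

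Its paralog pax6b ran from 6.59 to 6.89 log2 RPM in PFOS70 and from 7.01 to 7.28 in Control, without overlap, and POP70 lay between at 6.86 to 7.09. Unlike in pax6a, its POP70 range overlapped that of PFOS70. vsx1, the bipolar neuron gene, followed the same order: PFOS10 at 8.04 to 8.29, Control at 7.68 to 8.08, POP10 at 7.63 to 7.95, POP70 at 7.52 to 7.83 and PFOS70 at 7.20 to 7.65. In vsx1 only PFOS70 was clear of the Control range. The log2 differences of PFOS70 from Control were -0.46 ± 0.08 (SE) for pax6b and -0.53 ± 0.10 for vsx1.

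rx1 and rx2, the retinal homeobox pair, were set apart by PFOS10. rx1 read 6.65, 6.53, 6.55 and 6.42 log2 RPM in PFOS10 and 6.06, 6.03, 5.86 and 5.96 in Control. It ran from 5.65 to 6.04 in POP10, from 5.52 to 6.04 in POP70 and from 5.78 to 6.08 in PFOS70. The PFOS10 libraries were above the other 16, whose 4 groups overlapped with one another. rx2, the least read of the 9 genes, ran from 4.44 to 4.77 in PFOS10 and from 3.85 to 4.27 in Control. Its POP70 libraries split, at 4.20, 3.49, 3.41 and 4.16, which gave an SD of 0.43. The log2 difference of PFOS10 from Control was 0.56 ± 0.10 (SE) for rx1, a level 1.47-fold higher, and 0.47 ± 0.16 for rx2.

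six6b varied least of the 9 genes over the 20 libraries, by 1.44-fold in all. It ran from 5.69 to 5.78 log2 RPM in PFOS70 and from 5.79 to 6.22 over the other 16 libraries, so the PFOS70 range was clear of the rest. Its log2 difference from Control was -0.25 ± 0.09 (SE) in PFOS70 and between -0.06 and 0.00 in the 3 other exposures.

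foxg1b departed from the others in PFOS10. Control libraries read 7.91, 8.05, 8.01 and 8.29 log2 RPM, PFOS70 libraries 7.64, 7.49, 7.56 and 7.69, and PFOS10 libraries 7.81, 7.76, 8.01 and 7.81. POP10 libraries were the highest group, at 8.14, 8.08, 8.23 and 8.33, and POP70 libraries read 7.82, 8.04, 8.15 and 7.95. PFOS70 was clear of every other group, and the ranges of PFOS10 and Control overlapped. The log2 difference from Control was -0.47 ± 0.09 (SE) in PFOS70, -0.22 ± 0.09 in PFOS10, -0.08 ± 0.09 in POP70 and 0.13 ± 0.09 in POP10. It was the 1 gene of the 9 with a negative difference in PFOS10 and the 1 gene with a positive difference in POP10.

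**Figure D1:**
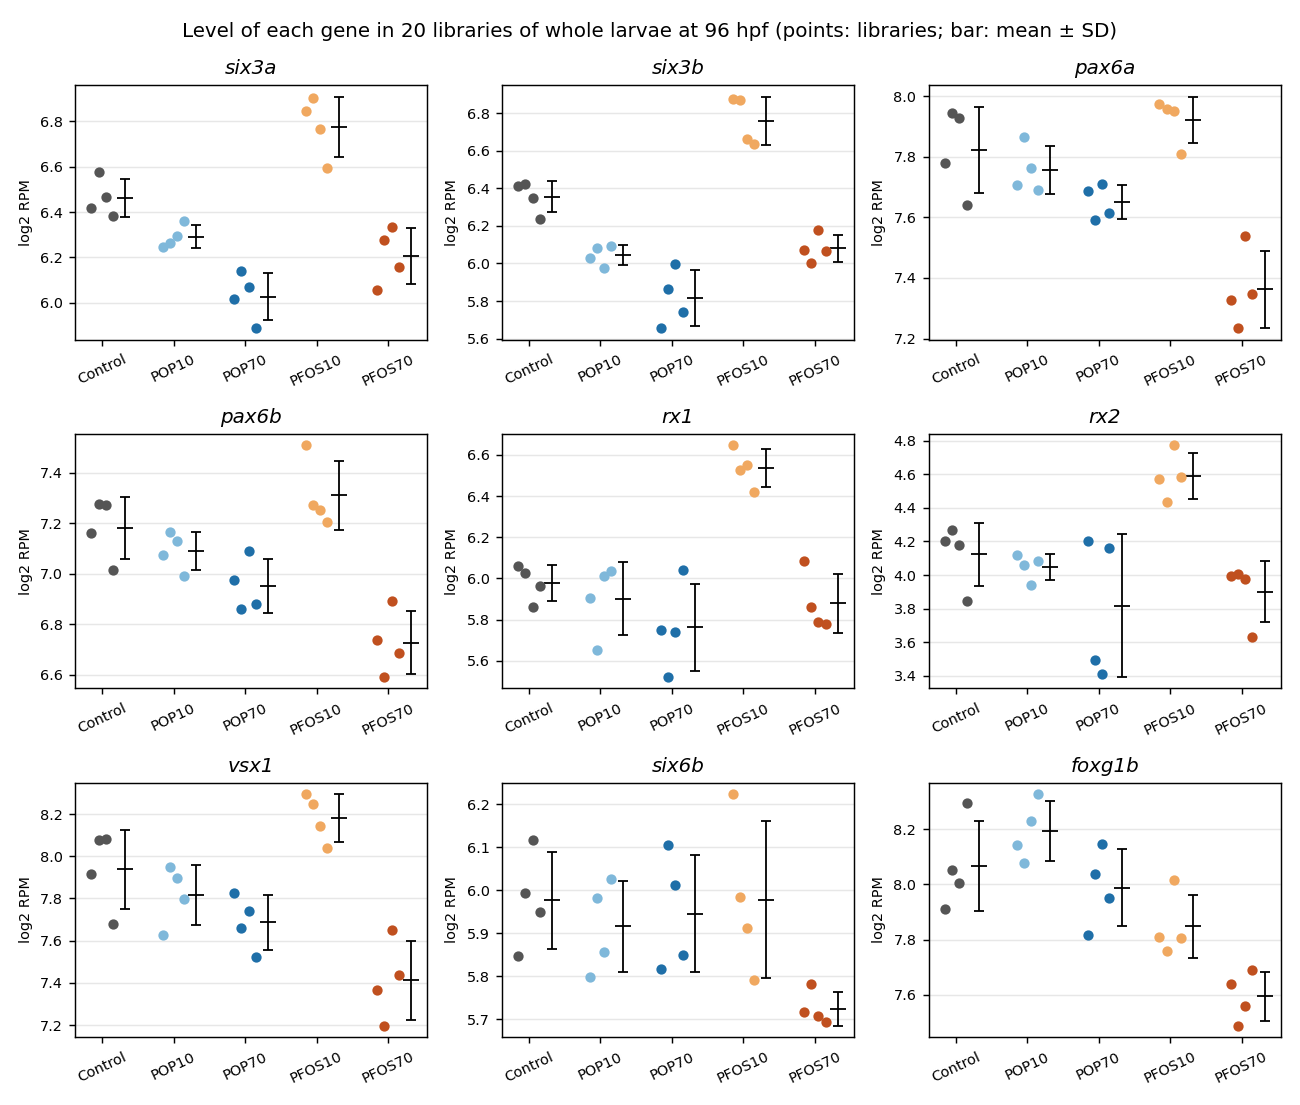
Level of each of the 9 genes (vertical axes, log2 RPM, each panel with its own scale that does not start at 0) in every library of the 5 groups, with the mean and SD of 4 libraries beside the points. By group mean, the six3 and rx genes are lowest in POP70, and pax6a, pax6b, vsx1, six6b and foxg1b are lowest in PFOS70. All but foxg1b have their highest mean in PFOS10, where the ranges of six3a, six3b, rx1 and rx2 are clear of Control.

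Counted over the 9 genes, 9 lay below Control on average in POP70 (median log2 difference -0.23), 9 in PFOS70 (-0.28) and 8 in POP10 (-0.08), while 8 lay above Control in PFOS10 (0.24). The medians over all genes tested were 0.00, 0.02, 0.01 and -0.03. The following counts were fixed by the choice of genes on these same comparisons, which also share the Control libraries, and nothing is read from them. At an adjusted p threshold of 0.05 with limma, 1 of the 9 was past it in POP70 (0.0156% of all genes tested), 0 in POP10 (0% of all genes tested), 0 in PFOS70 (0%) and 3 in PFOS10, all higher (1.28% of all genes were higher and 6.97% lower). Without adjustment 6, 2, 7 and 6 of them had p under 0.05, against 10.2%, 9.63%, 11.7% and 25.4% of all genes, and limma's voom method on whole reads recovered from the values called 1, 0, 0 and 3. The count in POP70 was 0 without Control replicate 1 or 2, and that in PFOS70 was 3 without Control replicate 4 and 3 without PFOS70 replicate 3. All 4 exposed libraries lay below all 4 Control libraries in 2 genes in POP70, 2 in POP10 and 7 in PFOS70, where the share over all genes was 3.53%, 3.1% and 1.98%, and above them in 4 genes in PFOS10 (2.86%).

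The balance of six3b and pax6a within single libraries differed between the mixture and PFOS alone. The log2 value of six3b less that of pax6a, a within-library difference that is free of the scaling between libraries, was -1.47 ± 0.10 (SD, n = 4) in Control. It was -1.71 ± 0.09 in POP10 and -1.84 ± 0.15 in POP70, against -1.28 ± 0.06 in PFOS70 and -1.16 ± 0.09 in PFOS10. The 8 mixture libraries, at -2.03 to -1.60, lay below all Control libraries, at -1.58 to -1.37, and the 8 PFOS libraries, at -1.36 to -1.09, lay above them. The margins to the Control range were narrow. In PFOS10 the log2 difference from Control was 0.41 in six3b and 0.10 in pax6a, and in PFOS70 it was -0.28 and -0.46. Since both genes had been chosen with these levels known, the split is given without a test. It was not seen in foxg1b less pax6a, where Control libraries, at 0.08 to 0.65, overlapped those of POP10 (0.21 to 0.64), POP70 (0.13 to 0.44) and PFOS70 (0.02 to 0.34). PFOS10 libraries lay below Control there, at -0.20 to 0.06. For the paralogs, pax6a less pax6b was between 0.61 and 0.70 in each group mean.

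**Figure D2:**
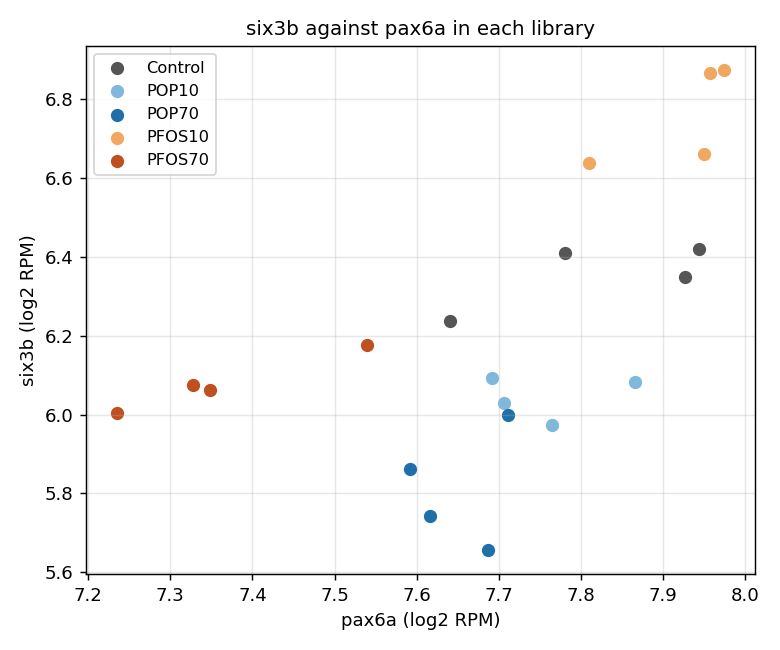
Level of six3b (vertical axis, log2 RPM) against that of pax6a (horizontal axis, log2 RPM) in the 20 libraries, with neither axis starting at 0. PFOS70 libraries lie to the left, with pax6a at 7.23 to 7.54, POP70 libraries have the lowest mean, with six3b at 5.66 to 6.00 beside 5.97 to 6.09 in POP10, and PFOS10 libraries lie at the upper right.

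Exposures were then compared with each other, without Control. These tests share exposed libraries with the comparisons on which the genes had been chosen. Each such difference is that of an exposure from Control less that of another, and those were known. The tests are thus not independent of the choice, and their p-values, adjusted over all 19289 genes, are a description and no evidence. At the low level, in POP10, 6 of the 9 genes were lower than in PFOS10 and 1 was higher, where 11.6% of all genes were lower and 19.8% higher. That background moved with scaling: set to equal library medians, 21.8% of all genes were lower and 15.7% higher. The log2 difference was -0.72 ± 0.08 (SE) for six3b (limma adjusted p = 1.83e-05), a level 1.64-fold lower in POP10. It was -0.48 ± 0.08 for six3a (4e-04), -0.63 ± 0.10 for rx1 (4e-04) and -0.54 ± 0.16 for rx2 (0.0135). vsx1 differed by -0.36 ± 0.10 (0.012) and pax6b by -0.22 ± 0.08 (0.0465). foxg1b went the other way, with 0.35 ± 0.09 (0.006). pax6a (-0.17, 95% interval -0.32 to -0.01, adjusted p = 0.0972) and six6b (-0.06, -0.25 to 0.12, 0.636) missed the threshold. All POP10 libraries lay below all PFOS10 libraries in 6 genes (8.32% of all genes) and above them in foxg1b (16.8%).

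The calls for six3a, six3b, rx1, rx2 and foxg1b at the low level were kept with each of the 8 libraries left out. That for vsx1 was lost without POP10 replicate 1 (adjusted p = 0.0514). That for pax6b was kept only without PFOS10 replicate 4 and was lost without each of the other 7 libraries (up to 0.173), and pax6a passed without PFOS10 replicate 4 (0.0484). With equal library medians the call for foxg1b was lost (limma adjusted p = 0.0616). These fits reuse the libraries on which the genes had been chosen, so a kept call adds no evidence.

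All 9 genes were lower in PFOS70 than in PFOS10, where 10.8% of all genes were lower and 23.6% higher. With equal library medians 25.6% of all genes were lower and 18% higher, and with quantile normalization 20.0% and 15.9%. The p-values here too are a description, since the levels in both groups were known when the genes were chosen. The log2 difference was -0.77 ± 0.10 (SE) for vsx1 (limma adjusted p = 5.01e-05), a level 1.7-fold lower, -0.68 ± 0.08 for six3b (1.87e-05) and -0.57 ± 0.08 for six3a (6.01e-05). It was -0.56 ± 0.08 for pax6a (5.01e-05) and -0.58 ± 0.08 for pax6b (7.23e-05). The retinal pair differed by -0.66 ± 0.10 (rx1, 0.000135) and -0.69 ± 0.16 (rx2, 0.00221). The smallest differences were those of six6b, -0.25 ± 0.09 (0.0335), and foxg1b, -0.25 ± 0.09 (0.0292). In each of the 9 genes, all 4 PFOS70 libraries lay below all 4 PFOS10 libraries, which held in this direction for 8.68% of all genes. The call for six6b was lost without PFOS10 replicate 1 or 2 or PFOS70 replicate 1, 3 or 4 (adjusted p up to 0.141). That for foxg1b was lost without PFOS10 replicate 3 or PFOS70 replicate 2 or 3 (up to 0.112).

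At the high level, where the mixture and PFOS alone hold the same amount of PFOS, no call was made. Of the 9 genes 0 passed with limma (0.181% of all genes did) and 0 with voom on recovered reads. Before adjustment 7 of 9 had p under 0.05, against 11.1% of all genes. The differences of both groups from Control were known when the genes were chosen, so nothing is read from this count or the next ones. The groups did not overlap in 3 genes that were higher in POP70 (2.16% of all genes) and 1 that was lower (3.58%). The closest was foxg1b, higher in POP70 than in PFOS70 in all libraries, by 0.39 ± 0.09 (SE, limma adjusted p = 0.0762, and 0.0307 to 0.276 over the alternatives). pax6a stood at 7.65 ± 0.06 in POP70 and 7.36 ± 0.13 in PFOS70 (SD, n = 4), a log2 difference of 0.29 with a 95% interval of 0.13 to 0.45 (adjusted p = 0.164). six3b stood at 5.82 ± 0.15 and 6.08 ± 0.07, a difference of -0.26 with an interval of -0.43 to -0.10 (0.246). The estimates had opposite signs: six3a, six3b, rx1 and rx2 were lower on average in POP70, and pax6a, pax6b, vsx1, six6b and foxg1b in PFOS70. That split too was known from the levels when the genes were chosen, and is a description.

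No difference between the levels of the mixture passed the threshold. In POP70 against POP10, 0 of the 9 genes passed with limma (0% of all genes did, and 0 with voom), 3 had p under 0.05 before adjustment (3.01% of all genes did), and adjusted p was 1 for each of the 9. All POP70 libraries lay below all POP10 libraries in 1 gene, six3a (1.18% of all genes). The log2 difference was -0.26 (95% interval -0.43 to -0.10) for six3a, -0.23 (-0.39 to -0.07) for six3b and -0.21 (-0.39 to -0.03) for foxg1b, and 0.03 (-0.16 to 0.22) for six6b.

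**Figure D3:**
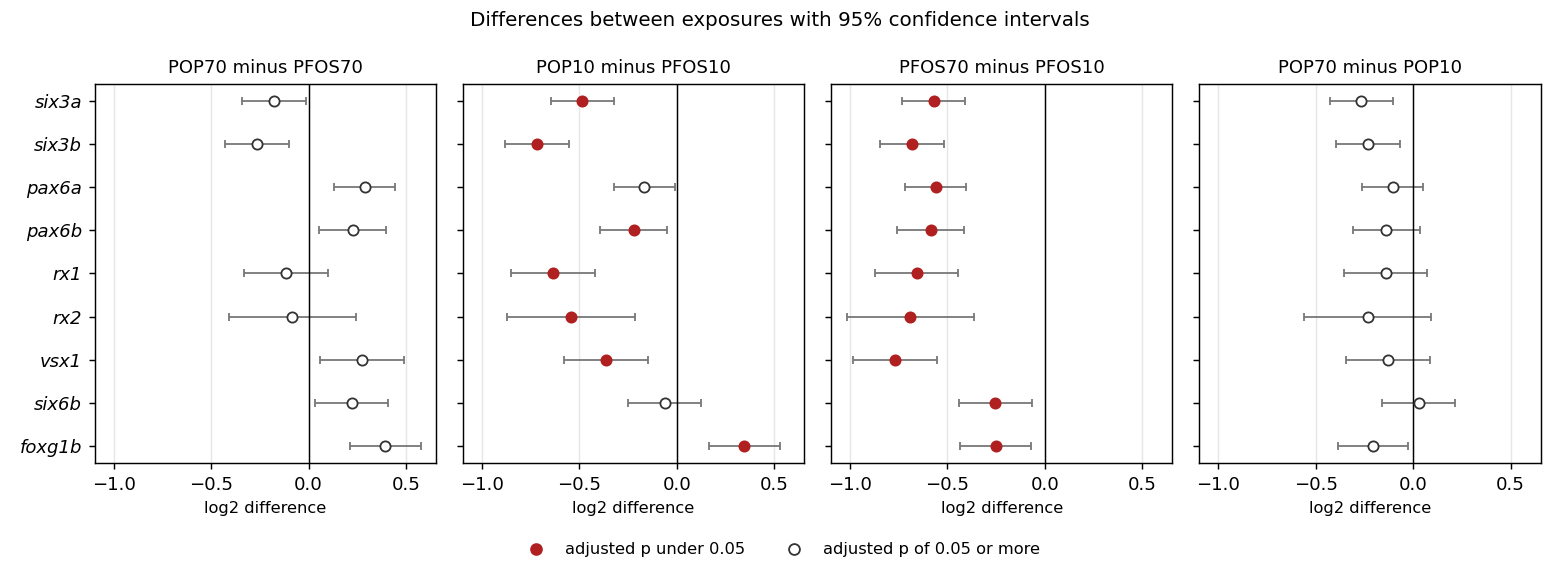
Log2 difference of each of the 9 genes between exposures (horizontal axes, with zero marked), as the limma estimate and its 95% interval from 20 libraries. Filled points have an adjusted p under 0.05: 0 of 9 for POP70 minus PFOS70, 7 for POP10 minus PFOS10, 9 for PFOS70 minus PFOS10 and 0 for POP70 minus POP10.

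Other regulators of the same tissues and families were examined through 6 lists with 156 tested genes, none of them among the 9. Against Control, 0 of the 156 passed with limma in POP70, POP10 or PFOS70, where 33, 25 and 44 had p under 0.05 before adjustment (10.2%, 9.63% and 11.7% of all genes did), and voom found 0 in each. Of the 33 retinal neuron factors, 32 had negative differences in POP70 (median -0.20) and 29 in PFOS70 (-0.25). The 25 eye field and retinal progenitor factors were negative in 19 (median -0.15) and 22 (-0.12), and the 41 telencephalon and diencephalon factors in 33 (-0.13) and 30 (-0.09). The 16 other six, eya and dach genes leaned the other way, with 12 positive in POP70 (0.07) and 13 in PFOS70 (0.22). Of the 11 other pax genes 9 were positive in POP70 (0.17) and 7 in PFOS70 (0.14). Their median in PFOS70 was 0.08 with equal library medians and -0.03 with quantile normalization, so no lean is read there. The 30 midbrain, hindbrain and spinal cord factors were near even in POP70 and PFOS70, with 14 positive in each (-0.01 and -0.02). In PFOS70 this moved with scaling: their median was -0.07 with equal library medians and -0.11 with quantile normalization. Under the latter the eye field median was -0.13, that of telencephalon and diencephalon -0.15 and that of retinal neuron factors -0.26. In POP10, 21 of the 30 midbrain, hindbrain and spinal cord factors were negative (-0.11). Beside them were 28 retinal neuron (-0.16), 21 eye field (-0.16) and 26 telencephalon and diencephalon factors (-0.07). In PFOS10, 24 of the midbrain, hindbrain and spinal cord factors were positive (0.215), beside 30 (0.19), 22 (0.14) and 24 (0.06) in those lists. The other six, eya and dach genes had 11 positive in POP10 and 4 in PFOS10, and the other pax genes 6 and 6. Of all genes tested, 49.8% were negative in POP70, 44.5% in PFOS70, 47.2% in POP10 and 54.4% in PFOS10. The lists as a whole were drawn up with earlier results of these data known, so their counts and p-values are a description and not independent of these libraries. They include bhlhe22, bhlhe23 and rbpms2b, whose own levels in these libraries were known.

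In PFOS10, 15 of the 156 genes rose against Control and 3 fell (9.62% and 1.92%, against 1.28% and 6.97% of all genes), and with equal library medians 28 and 2 did (5.87% and 5.64% of all genes), with quantile normalization 14 and 1 (1.31% and 2.76%). The proneural genes ascl1b and ascl1a, which start neurogenesis, rose from 4.29 to 5.09 log2 RPM (log2 difference 0.79 ± 0.11 SE, limma adjusted p = 0.00104) and from 4.55 to 5.29 (0.74 ± 0.11, 0.00115). neurog1, of the same kind, rose by 0.68 ± 0.14 (0.00811). Among retinal factors, neurod4 (0.39 ± 0.09, 0.0108), barhl2 (0.27 ± 0.07, 0.0227), mab21l1 (0.37 ± 0.08, 0.0107) and the ganglion cell gene atoh7 (0.48 ± 0.14, 0.044) rose. meis1a fell (-0.33 ± 0.09, 0.0356), as did eya1 (-0.43 ± 0.09, 0.0111) and pax9 (-0.60 ± 0.17, 0.0349). In the midbrain, hindbrain and spinal cord list 3 of 30 rose, en2b, lbx1a and gbx2, so regulators from outside the eye and forebrain were among them. The 18 calls became 10, 7 and 5 without Control replicate 1, 2 or 4, 7, 11 and 9 without PFOS10 replicate 1, 2 or 3, and 32 without PFOS10 replicate 4.

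Between PFOS70 and PFOS10, 58 of the 156 were lower and 15 higher in PFOS70 (37.2% and 9.62%, against 10.8% and 23.6% of all genes). With equal library medians 82 were lower and 12 higher, where 25.6% of all genes were lower and 18% higher. The lower ones were 23 of 33 retinal neuron factors (median log2 difference -0.44), 13 of 25 eye field factors (-0.31), 11 of 41 telencephalon and diencephalon factors (-0.20) and 9 of 30 midbrain, hindbrain and spinal cord factors (-0.20). neurod4 differed by -0.68 ± 0.09 (SE, limma adjusted p = 3.01e-05) and the LIM homeobox gene isl1 by -0.55 ± 0.07 (5.01e-05). The list of other six, eya and dach genes leaned the other way: 9 of 16 were higher in PFOS70 and 0 lower (median 0.50), with equal library medians 9 and 3 (0.36). However, six7 and six6a, which were placed in the eye field list, had negative differences like the six3 genes (-0.27 and -0.16), without passing the threshold. six1a, a factor of muscle and sensory placodes, was higher by 0.69 ± 0.10 (7.98e-05), eya1, its partner in ear development, by 0.64 ± 0.09 (8.17e-05), and six4b by 0.90 ± 0.14 (0.000159). Of the other pax genes 3 of 11 were higher and 2 lower, with equal library medians 2 and 2. pax9, of pharyngeal tissue, was higher by 0.83 ± 0.17 (0.00103), and pax10, a pax6-related gene that lacks the paired box, differed by -0.89 ± 0.13 (8.06e-05).

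POP10 against PFOS10 gave a like count, 57 of 156 lower and 13 higher, against 11.6% and 19.8% of all genes. With equal library medians 76 and 6 were (21.8% and 15.7% of all genes), and with quantile normalization 65 and 5 (15.1% and 13.9%). Without rescaling, the lower ones included 16 of 33 retinal neuron factors (median log2 difference -0.33), 9 of 25 eye field factors (-0.22) and 13 of 41 telencephalon and diencephalon factors (-0.11). They also included 13 of 30 midbrain, hindbrain and spinal cord factors (-0.30), so the lower levels were not particular to eye and forebrain regulators. Of the other six, eya and dach genes 7 of 16 were higher and 4 lower. ascl1b (-0.91 ± 0.11 SE, limma adjusted p = 5.29e-05) and mab21l1 (-0.55 ± 0.08, 0.00019) were lower in POP10, and eya2 (0.87 ± 0.17, 0.00109) was higher. This comparison shares the PFOS10 libraries with that of PFOS70. The log2 difference of bhlhe23, given without a p since its levels were known, was 0.48 in PFOS10 against Control, -0.74 in PFOS70 against PFOS10 and -0.71 in POP10 against PFOS10. In POP70 against PFOS70, and in POP70 against POP10, 0 of the 156 passed with limma, 24 and 10 had p under 0.05 before adjustment (11.1% and 3.01% of all genes did), and voom found 0 in both.

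**Figure D4:**
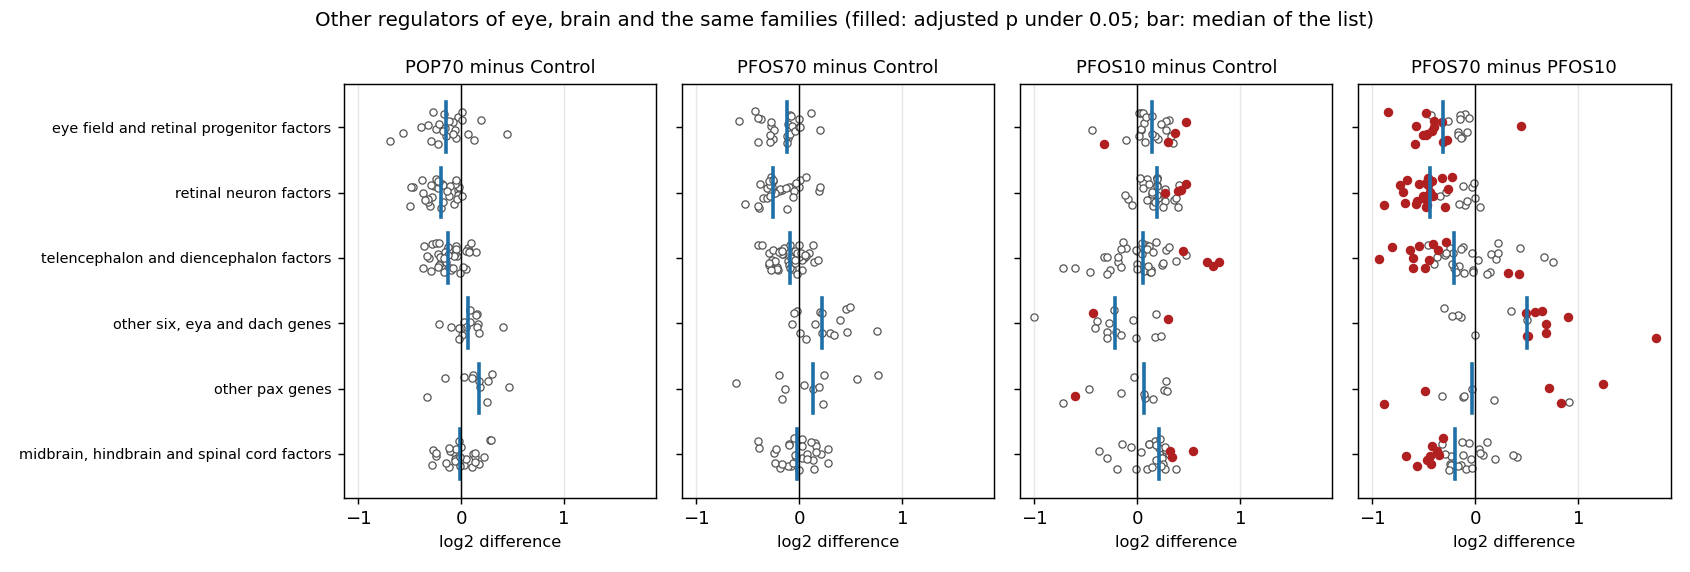
Log2 differences (horizontal axes, with zero marked) of 156 other regulators in 6 lists, 1 point a gene, with the median of each list as a bar. Filled points have an adjusted p under 0.05. Retinal neuron factors lie to the left in PFOS70 minus PFOS10 (median -0.44), while the other six, eya and dach genes lie to the right (median 0.50).

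Markers of whole cell types are given beside these results. The levels of 4 of them (apoa4b.1, ela3l, krt91 and opn1lw2) were known when the lists were drawn up. Of 15 general neuron markers, 15 had a negative difference in POP70, 15 in POP10 and 14 in PFOS70 (medians -0.14, -0.20 and -0.12), and 13 a positive one in PFOS10 (0.23), but with limma 0 passed the threshold in the first 3 comparisons and 2 in PFOS10. Their summed level was 13.03 to 13.26 log2 RPM in Control, 12.73 to 13.02 in POP70, 12.85 to 13.01 in POP10, 12.83 to 13.07 in PFOS70 and 13.08 to 13.48 in PFOS10. The 17 photoreceptor markers summed to 14.43 to 14.71 in Control, 14.02 to 14.43 in POP70, 14.32 to 14.79 in POP10, 14.26 to 14.55 in PFOS70 and 14.64 to 14.99 in PFOS10. The summed neuron ranges of POP70 and POP10 lay just below that of Control, and those of PFOS70 and PFOS10 overlapped it. The summed photoreceptor range overlapped that of Control in each group. Taken singly, 15 of the 17 had a negative difference in POP70 (median -0.26), 9 in POP10 (-2e-04) and 17 in PFOS70 (-0.14). In PFOS10, 15 had a positive one (0.23). With limma 0 passed the threshold in the first 3 comparisons and 3 in PFOS10, all higher (1.28% of all genes were). From PFOS10 to PFOS70, 12 of 15 neuron markers and 8 of 17 photoreceptor markers were lower past the threshold, as were 10.8% of all genes, and 1 neuron marker, nefma, was higher (0.32 ± 0.11 SE, limma adjusted p = 0.0234). The 13 markers of liver, pancreas and gut were all higher past it (median 2.38), as were 7 of 8 skin markers (0.76) and 23.6% of all genes. With equal library medians 14 neuron, 15 photoreceptor, 13 digestive and 5 skin markers passed in the same directions, against 25.6% of all genes lower and 18% higher. Against Control, all 13 digestive markers were negative in PFOS10 (median -1.49, 7 past the threshold) and positive in PFOS70 (0.78, 0 past). All 8 skin markers were negative in PFOS10 (-0.52, 3 past) and positive in PFOS70 (0.18, 0 past). Of all genes 6.97% were lower past the threshold in PFOS10 and 0% passed in PFOS70. In POP10 against PFOS10, 13 of 15 neuron markers and 6 of 17 photoreceptor markers were lower (11.6% of all genes), and 12 of 13 digestive, 8 of 8 skin and 1 photoreceptor marker higher (19.8%). In each of the 5 groups 0 markers of these lists averaged near 0 reads. The part of cell makeup in the levels of the 9 genes was not tested.

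The genes most like each of the 9 were sought over the 20 libraries, among 7158 or 7159 genes whose mean level reached 5 log2 RPM and whose symbol is no clone name. Likeness was Pearson's r of log2 RPM, given as a description, since all profiles come from the same 20 libraries and share the PFOS10 offset. six3a was closest to six3b (0.95), bhlhe22 (0.95) and bhlhe23 (0.94), and six3b to bhlhe23 (0.97), six3a (0.95) and trpm1b (0.94), a channel gene whose mammalian counterpart acts in retinal bipolar cells. pax6a was closest to pax6b (0.97), vsx1 (0.96) and rbpms2b (0.91), an RNA-binding gene of retinal ganglion cells. pax6b was closest to pax6a, vsx1 (0.95) and the G protein subunit gene gng13b (0.92), and vsx1 to gng13b (0.96), pax6a and pax6b. The likeness fell off for the rest: rx1 to sox11b (0.88), rcvrn2 (0.87) and pnrc2 (0.87), rx2 to neurod4 (0.84), srsf1b (0.83) and ppm1da (0.82), six6b to mark3b (0.82), tmem178b (0.78) and nhsl2 (0.77), and foxg1b to mre11a (0.78), cdk5r2b (0.78) and ciarta (0.77). None of the 9 was among the 3 nearest of rx1, rx2, six6b or foxg1b. However, rx2, with a mean of 4.10 log2 RPM, was below the level filter and could not be listed for any gene. Its r with rx1 was 0.82, and rx1 ranked 6 among the genes nearest rx2.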

How the data were processed

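RNA sequencing of 20 pools of whole larvae was analysed from the table of 48838 transcripts that the authors deposited, giving a log2 value for every library. Per the submitters' processing notes, the build was GRCz11 and the software included STAR 2.5.4b, R 3.5.0, Trim Galore 0.4.5 and DESeq2, without roles or order, and how the log2 values were made is not stated there. Judged by the numbers, each is a log2 of RPM with 0 reads written as 0.9 reads. Divided by the worth of 1 read, 100% of values of 1 to 1000 reads came out whole within 0.05 reads. Columns sum to 3126704 to 3390337 RPM, above the total RPM refers to, for a reason not tested. Transcripts over 20 reads with equal reads in 2 libraries were at most 1.26% of all.

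Per gene the transcript of highest mean was kept, and a gene was tested if 4 or more libraries reached 0 log2 RPM, true of 19289 out of 22851, and no further pseudocount was added. A limma 3.58.1 fit in R 4.3.3, with group as the only term, a mean-variance trend and two-sided tests over 20 libraries, gave differences, with Benjamini-Hochberg adjustment within each comparison and a threshold of 0.05. The fit was tested on simulated data. The members and lists were chosen with earlier results of these data known. All 9 genes are named, from each list up to 3 genes per comparison and direction of smallest adjusted p, and the 3 genes nearest in profile. Not all list genes so chosen are given, and some are not reported here. Marker lists covered photoreceptors, pigment epithelium and Muller glia, lens, neurons, glia, proliferating cells, muscle, digestive organs and skin.

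Alternatives were no filter, a filter at 5 log2 RPM, log2(RPM + 16), quantile normalization, equal medians, no trend, a block for replicate number, a fit of just the 2 groups, limma voom on recovered reads, the lowest-numbered transcript, all transcripts, no PFOS10 libraries, and each library left out.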

Additional observations from a re-analysis of the deposited data

Results flagged for a closer look

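Among the 45 sets of 4 libraries (9 genes in 5 groups), 2 held a library far from the other 3, where chance gives about 1 in 20 sets. They were pax6a in PFOS10, with 1 library at 7.81 log2 RPM, and rx2 in PFOS70, with 1 library at 3.63.

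The levels under 2 exposures differed past the threshold with limma in 16 cases. Such calls were common: of all genes, 11.6% were lower and 19.8% higher in POP10 than in PFOS10. In PFOS70 against PFOS10, 10.8% of all genes were lower and 23.6% higher. The 9 genes had been chosen with the levels of these same exposed libraries known, so these tests are not independent of the choice. For POP10 against PFOS10 the log2 differences were -0.48 in six3a, -0.72 in six3b, -0.22 in pax6b, -0.63 in rx1, -0.54 in rx2, -0.36 in vsx1 and 0.35 in foxg1b. For PFOS70 against PFOS10 they were -0.57 in six3a, -0.68 in six3b, -0.56 in pax6a, -0.58 in pax6b, -0.66 in rx1, -0.69 in rx2, -0.77 in vsx1, -0.25 in six6b and -0.25 in foxg1b. All 16 use the PFOS10 libraries, which lay apart on the first principal component, and a batch that coincided with that group cannot be told apart from it.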

How the results depend on the processing

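For the 9 genes, no called difference between exposures changed sign under an alternative. The counts of 7 and 9 in POP10 and in PFOS70 against PFOS10 stayed within 1.5 times, though single genes (pax6b, vsx1, foxg1b and six6b) lost a call in 15 and 9 cases. Counts against Control were fixed by the choice of genes and are given for completeness. The count in POP70 against Control, 1, became 2 with the filter at 5 log2 RPM, quantile normalization, equal medians, the replicate block or no PFOS10 libraries, 0 with only the 2 groups, and 0 to 1 with a library left out. In PFOS70 against Control, 0 became 1 with the filter at 5, 3 with quantile normalization, 3 with equal medians, 4 with the replicate block and 0 to 3 with a library left out. In PFOS10 against Control, 3 became 5 with equal medians and 2 to 3 with a library left out, where six3a dropped out in 4 of 8 fits. In POP70 against PFOS70, 0 became 1 (foxg1b, adjusted p = 0.0307) with quantile normalization. The causes were not tested.

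Of the 156 other regulators, 0 calls in POP70 against Control became 2 with the filter at 5, 1 with quantile normalization, equal medians, the replicate block or no PFOS10 libraries, and 0 to 2 with a library left out. In PFOS70 against Control, 0 became 2 with quantile normalization, equal medians or the replicate block and 0 to 2 with a library left out. In POP70 against PFOS70, 0 became 1 with the filter at 5, quantile normalization or equal medians. In PFOS10 against Control, 18 became 10 with the filter at 5 or only the 2 groups, 30 (28 higher) with equal medians and 5 to 32 with a library left out. With the filter at 5, which tests fewer genes, 70 became 44 in POP10 against PFOS10 and 73 became 42 in PFOS70 against PFOS10, and rx2 was not tested.

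Library medians differed by 0.14 log2 between PFOS70 and PFOS10 and by 0.10 between POP10 and PFOS10, so with equal medians PFOS70 differences were larger in size (vsx1 -0.91) and foxg1b in POP10 against PFOS10 lost its call (adjusted p = 0.0616). Same-numbered libraries of the groups compared correlated at -0.22 to 0.25 in their deviations, and 3 of 20 libraries correlated best with their own number, so the number was not taken to pair them. The median standard error per gene, 0.13 log2, limits what these libraries could show.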

Other observations

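Other transcript rows of the same genes, which share reads with the rows used above, moved alike. All 10 rows of pax6a had negative differences between PFOS70 and PFOS10, from -0.58 to -0.46 log2, and all 6 of pax6b, from -0.59 to -0.46. The 3 rows of rx1 were higher in PFOS10 than in Control by 0.52 to 0.56 and the 2 rows of rx2 by 0.47 to 0.58. The 2 rows of foxg1b have the same transcript ID, coordinates and values in every library, so their likeness was fixed in advance. Some rows of pax6b also share a transcript ID.

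All 9 lens markers had lower means in POP70 than in PFOS70 (median log2 difference -1.02), with 0 past the threshold with limma, and from PFOS10 to PFOS70, 4 of 9 were higher past it (median 1.04; 23.6% of all genes were), among them crygn2 (1.04 ± 0.27 SE, limma adjusted p = 0.00514) and bfsp2 (1.33 ± 0.37, 0.00943). Their summed level ranged widely within groups, from 8.70 to 10.71 log2 RPM in POP10. Markers of skeletal muscle had median log2 differences of -0.07 to 0.10 in the 8 comparisons, with 1 of 11, acta1a, past the threshold, from PFOS10 to PFOS70.

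Between PFOS70 and PFOS10, 3 of 9 glia markers were lower and 1 higher past the threshold (median log2 difference -0.27), 2 of 10 markers of Muller glia and pigment epithelium were lower and 1 higher (-0.17), and 1 of 14 markers of proliferating cells was lower (-0.15), where 10.8% of all genes were lower and 23.6% higher. With equal library medians the lower ones were 6, 5 and 7, and 25.6% of all genes were lower.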
